A study of Saccharomyces cerevisiae with 21 samples.

Results

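Among the nuclear positions at which ribose-seq found a ribonucleotide in wild-type (WT) budding yeast, 353 carried a value in at least 2 of the 6 WT libraries. They were chosen by merging the rows of the deposited table by chromosome, coordinate and strand, leaving out mitochondrial DNA, and keeping each position and strand with a value in 2 or more WT libraries. They were 0.566% of the 62412 nuclear positions seen in any WT library, and a small part of the 6492015 seen in any of the 17 libraries. The WT values therefore chose the positions, and what follows on WT is a description. The mutant libraries were not used in the choice. No genome of the same build as the table was at hand, so neither the base nor the gene at a position is given.

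Ribonucleotides are placed in DNA by the replicative polymerases, and the enzyme ribonuclease H2 (RNase H2) starts their removal by cutting beside single ribonucleotides. The yeast enzyme has a catalytic subunit, Rnh201, and the accessory subunits Rnh202 and Rnh203. In WT nuclear DNA most embedded ribonucleotides are thus removed. Telomeres are remade by telomerase, which extends the strand whose 3′ end lies at the chromosome end.

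All cells were of strain BY4742, a MATα derivative of S288C, grown to stationary phase. The groups were WT (6 libraries), rnh203-K46W (5 libraries), rnh201-G42S (3 libraries) and rnh201-null (3 libraries). The K46W and G42S changes are yeast counterparts of mutations found in Aicardi-Goutières syndrome and were made by delitto perfetto, and rnh201-null lacks the catalytic subunit. One label field writes the K46W change under rnh201, while titles and design text write rnh203. The labels do not say whether replicates came from separate clones or cultures, so p-values measure the spread between libraries, which may be technical.

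Depth differed between groups by orders of magnitude. The WT libraries held 757 to 38548 recovered nuclear reads, rnh203-K46W 7217 to 1845398, and rnh201-G42S 954286 to 4052232. In rnh201-null, replicate 1 held 1435 reads, and replicates 2 and 3 held 2127047 and 1944584. The value at a position is an enrichment factor, a ratio of ribonucleotides to DNA depth scaled within each library. Nuclear values summed to nearly the length of the nuclear genome, so an even spread over both strands would give 0.501 at each. A single read in a shallow library therefore has a large value. The median value, at positions that mostly held 1 read, was 11430 in WT replicate 1 and 312.6 in WT replicate 6. By their mitochondrial profiles the libraries fell into 2 sets that cross the genotypes and have no label. Set A held WT replicates 1, 3 and 6, rnh203-K46W 1, 2 and 4, rnh201-G42S 1 and 3, and rnh201-null 1 and 2. Set B held the others. WT replicates 3 and 5 were the least clear. Replicate 3, of set A, had mean Spearman correlations of 0.497 to set A and 0.327 to set B. Replicate 5, of set B, had 0.401 to set A and 0.595 to set B. DNA was cut with one of 3 restriction enzyme mixtures, and the labels do not tie a mixture to a library.

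WT libraries shared more positions than their sizes would give by an even spread. The 6 WT libraries had 1004, 639, 8234, 6714, 9542 and 36638 nuclear positions, in the order of their replicates. Of these, 1.59%, 3.13%, 1.71%, 2.03%, 2.0% and 0.568% were recurrent. Libraries of these sizes spread evenly over 24091756 strand positions would share 49.6 positions, so 353 was 7.11 times that number. The 95% Poisson interval of 6.39 to 7.90 covers counting error only and takes positions as independent. Many of them lay in groups, as described below, so the interval is too narrow. In 3 libraries 6 positions recurred, against 0.0166 by an even spread, and none recurred in 4 or more. Positions differ in how readily they are seen at all. When the libraries were spread over only the 6492015 positions seen in any of the 17 libraries, the expected number rose to 183.8 and the ratio was 1.92. That set holds the WT positions themselves, as well as positions that only the deep mutant libraries reached.

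All 15 pairs of WT libraries shared more positions than an even spread gives, by 2.18 to 39.3 times. Replicates 4 and 5 shared 76 positions, 28.6 times the expected number, and replicates 3 and 5 shared 49, or 15.02 times. Replicates 3 and 6 shared 84, 6.71 times the expected number, and replicates 3 and 4 shared 5, or 2.18 times. The 6 pairs within a mitochondrial set shared 190 positions against 17.5 expected, and the 9 pairs between sets shared 175 against 32.2. The median ratios were 18.7 within sets and 5.03 between them. The ranges overlapped, and ratios of pairs with replicates 1 or 2 rest on as little as 1 shared position. Within the 4 WT libraries whose numbers lie in series 200, the 6 pairs together shared 7.15 times the expected number. An excess was also present in the mutants, where the median ratio was 5.23 over 10 pairs of rnh203-K46W, 3.63 over 3 pairs of rnh201-G42S and 2.73 over 3 pairs of rnh201-null. The ratio cannot exceed the number of strand positions over the size of the larger library, so these medians order no genotypes. In rnh203-K46W it was 33.1 for replicates 1 and 2 and 2.46 for the deeper replicates 3 and 4. In rnh201-null, replicate 1 had only 1435 positions.

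**Figure D1:**
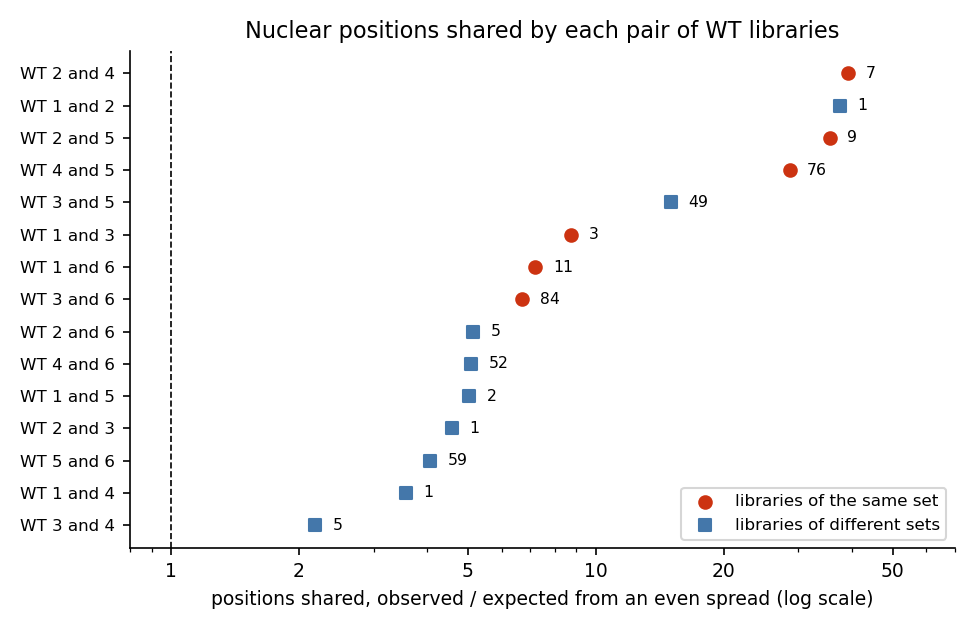
Number of nuclear positions shared by each of the 15 pairs of WT libraries, divided by the number expected from an even spread over both strands, on a log axis; circles are pairs within a mitochondrial set, squares pairs between sets, and the number beside a point is the positions shared. Every pair lies above 1, from 2.18 for replicates 3 and 4 to 39.3 for replicates 2 and 4.

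The recurrent positions lay on both strands in near equal number, 182 on the plus and 171 on the minus strand. Of the 353, 25 (7.08%) lay within 20 kb of a chromosome end, against 3.31% of the 62059 positions seen in exactly 1 WT library. The surplus was in the outermost DNA. Within 100 bp of an end lay 14 recurrent positions (3.97%), against 67 single-library positions (0.108%) and 0.00957% of positions of any library. Between 1 and 20 kb from an end the shares were 2.55% and 3.04%. All 14 end positions were on the strand whose 3′ end is the chromosome end, as were 62 of the 67 single-library positions there. The median DNA depth at recurrent positions was 1.01 times the WT median, against a ratio of 1 there for single-library positions. At positions 39 to 49 of the chromosome I end it was lower, 0.471 to 0.543 times the median, which raises the value per read. At positions 29 and 36 there, the recovered reads of WT replicates 2 and 5 imply different depths, so no depth is given.

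The densest group of positions was at the left end of chromosome I, where 10 positions lay between 29 and 49 on the minus strand. WT replicate 2 had a value at all 10, with 89 reads in all, or 11.8% of its 757 nuclear reads. Its values helped to choose these positions, so no interval is given for the share. WT replicate 4 had 4 reads there and WT replicate 5 had 10, while WT replicates 1, 3 and 6 had none. At positions 29 and 36 the recovered reads of WT replicates 2 and 5 imply different DNA depths, so the totals of 89 and 10 may be slightly too high. A count of 0 allows a share of up to 0.284% of reads in WT replicate 1, 0.0342% in replicate 3 and 0.00778% in replicate 6. The 3 WT libraries with reads were the 3 of set B.

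The mutant libraries split in the same way at this end. In rnh203-K46W, replicate 3 had 4 reads at the 10 positions and replicate 5 had 5, and replicates 1, 2 and 4 had none. In rnh201-G42S, replicate 2 had 76 reads and the others none, although replicate 3 was the deepest library and its 0 allows at most 7.4e-05% of its reads. In rnh201-null, replicate 3 had 35 reads and replicates 1 and 2 none. Every set B library had reads there and no set A library did. The 76 reads were 0.00535% of the nuclear reads of rnh201-G42S replicate 2, and the 35 reads were 0.0018% of those of rnh201-null replicate 3. No label says what the sets differ in, and their part in the recurrence at this end was not tested.

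**Figure D2:**
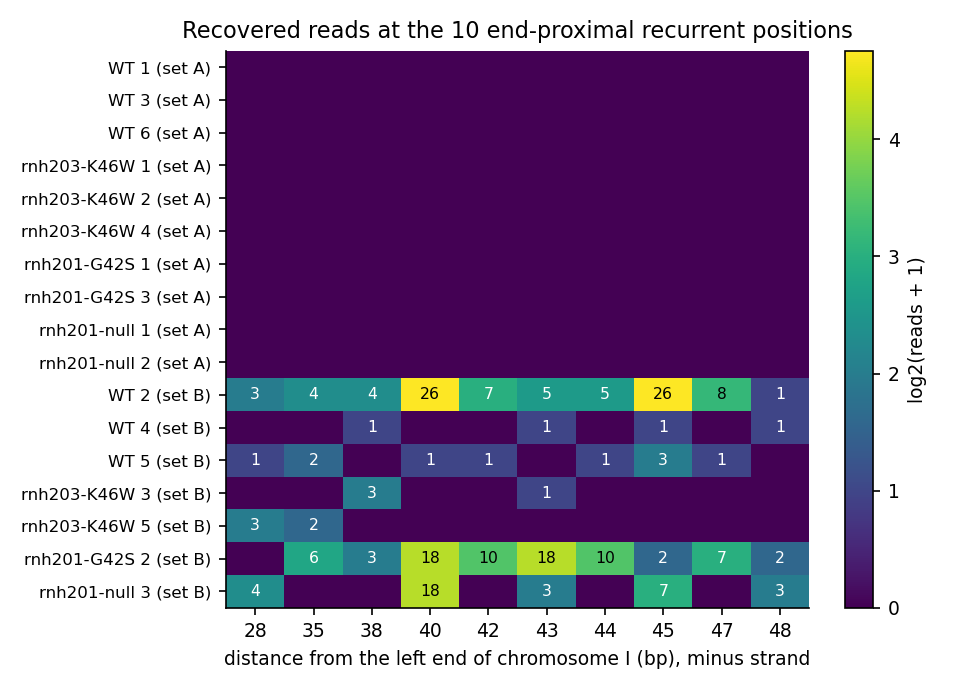
Recovered reads in each library at the 10 recurrent positions of the left end of chromosome I, by distance from the end in bp; colour gives log2(reads + 1), the number in a cell is its reads, and a dark cell without a number is a library with no value. Reads appear in the 7 set B libraries, with 89 in WT replicate 2 and 76 in rnh201-G42S replicate 2, and in no set A library. Numbers for WT replicates 2 and 5 at 28 and 35 bp may be slightly too high.

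The other end positions were few. At the right end of chromosome XV, the plus-strand positions 1091283, 1091284 and 1091285 lay 3 to 5 bp from the highest coordinate in the table. Position 1091284 had values of 18139 in WT replicate 2, 2252 in replicate 4 and 3182 in replicate 5, from 1, 1 and 2 reads. Among mutants it had 2 reads in rnh201-G42S replicate 2 and 1 in rnh201-null replicate 3. On chromosome XI, minus-strand position 51 was seen in 2 WT libraries and in no mutant library.

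Many recurrent positions lay in same-strand groups. A recurrent neighbour within 100 bp on the same strand was found for 94 positions (26.6%), and none had one on the opposite strand at that distance. An even spread would give 0.293%. Of the 339 positions outside the outermost 100 bp, 81 (23.9%) lay in such groups. Single-library positions are far denser, so that an even spread already gives a neighbour within 100 bp for 40.3% of them. They had a same-strand neighbour within 100 bp for 64.3% and an opposite-strand one for 29.0%. Within 10 bp the shares were 28.0% and 3.46%, against 5.02% by an even spread, and those of recurrent positions were 14.4% and 0 against 0.0293%. Chained at 100 bp, the 81 positions outside the ends formed 35 groups with a median span of 20 bp, of which 28 were pairs and 7 held 3 or more. Chromosome I held 3 of these 7 and had 86.9 recurrent positions per Mb outside the ends, against 17.8 to 47.4 on the other chromosomes. That density and the groups overlap, as the 3 groups held 6, 4 and 3 of its 20 positions outside the ends.

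The 3 interior groups of chromosome I were all on the plus strand. The group at 129763 to 129837 held 6 positions, with 5 reads in WT replicate 4, 1 in replicate 5 and 7 in replicate 6. In the mutants it had 63 reads in rnh201-G42S replicate 2, 18 in replicate 3 and 0 in replicate 1. In rnh201-null it had 28 reads in replicate 3, 1 in replicate 2 and 0 in replicate 1, and in rnh203-K46W 1, 0, 1, 5 and 1 reads in the order of replicates. Most reads came from 2 set B libraries, but set A libraries had reads too, unlike at the chromosome end. The group at 116496 to 116530 held 3 positions and had 5 and 7 reads in WT replicates 4 and 5, 26 in rnh201-G42S replicate 2 and 19 in rnh201-null replicate 3. The group at 66925 to 66954 held 4 positions, with 6, 1, 1 and 3 reads in WT replicates 3, 4, 5 and 6. Its position 66954 was among the 6 seen in 3 WT libraries, with 1 read in each of replicates 3, 4 and 5. The group with most reads in 1 mutant library lay on the minus strand of chromosome XVI at 252115 to 252136. Its 3 positions had 162 reads in rnh201-G42S replicate 2, 27 in rnh201-null replicate 3 and 12 in rnh203-K46W replicate 4.

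In mutant libraries, recurrent WT positions were seen more often than positions of a single WT library. At least 1 of the 11 mutant libraries had a value at 286 of the 353 (81.0%), against 56.9% of the single-library positions, and 67 had none. The share was 80.7% for positions in 2 WT libraries. All 6 of those in 3 had a value too, but they are too few to show a further rise. A value in any rnh203-K46W library was found at 145 positions (41.1%, against 21.04%). For rnh201-G42S the number was 234 (66.3%, against 40.5%), and for rnh201-null 146 (41.4%, against 24.6%). These shares depend on depth, so they order no genotypes. Within a library, the share of recurrent positions with a value exceeded that of single-library positions in all 11. In rnh201-null replicate 2 the shares were 13.88% and 13.81%, a ratio of 1.005. In rnh201-null replicate 1 the share rested on 1 position. In the other 9 libraries the ratio ran from 1.46 in rnh201-G42S replicate 3 to 7.68 in rnh203-K46W replicate 2.

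**Figure D3:**
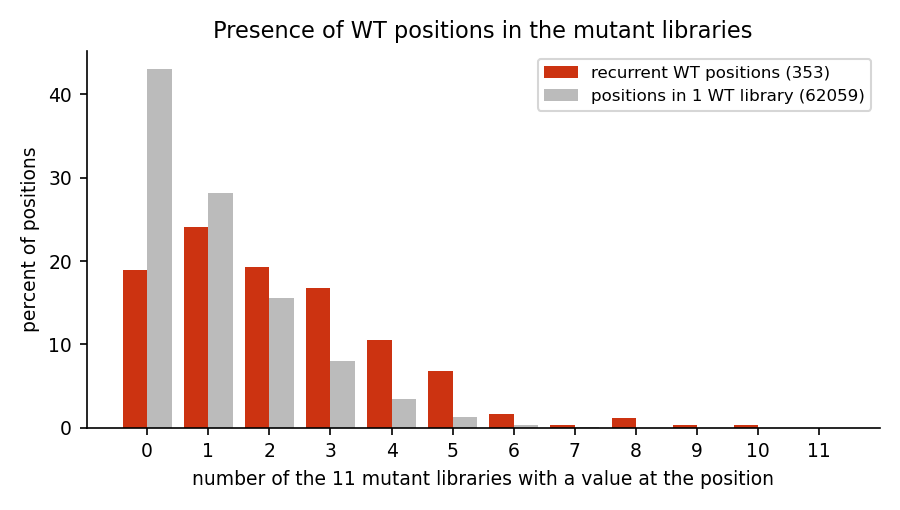
Share of positions by the number of mutant libraries, out of 11, that have a value there, for the 353 recurrent positions and the 62059 seen in exactly 1 WT library. No mutant library had a value at 19.0% of the former and 43.1% of the latter.

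Signal at recurrent positions was also higher. The mean enrichment factor over the 353 positions, absent values counted as 0, was 281.1, 1033, 32.5, 104.6 and 101.8 in rnh203-K46W replicates 1 to 5. At single-library positions it was 6.28, 8.56, 1.18, 4.21 and 1.39. In rnh201-G42S the means were 16.0, 22.1 and 8.26, against 4.11, 3.29 and 2.15. In rnh201-null they were 21.1, 1.26 and 7.32, against 1.05, 1.27 and 1.76, and the first rests on 1 read. Recurrent positions were above single-library positions in 10 of 11 libraries, the exception being rnh201-null replicate 2.

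On the scale of log2(mean + 0.1), the ratio of recurrent to single-library positions averaged 3.68 ± 2.13 (SD, n = 11). A two-sided exact sign-flip permutation test over libraries gave p = 0.00195 and an adjusted p of 0.00781 over 4 tests. Over the 5 rnh203-K46W libraries the ratio was 5.55 ± 0.97 (SD). It was 2.18 ± 0.46 (SD, n = 3) for rnh201-G42S and 2.06 ± 2.11 (SD, n = 3) for rnh201-null. It was above 0 in 5 of 5, 3 of 3 and 2 of 3 libraries. For rnh203-K46W and rnh201-G42S the exact p was the smallest that 5 or 3 libraries allow, with adjusted p of 0.125 and 0.333, and rnh201-null had p = 0.5, so no genotype passed alone. Without WT replicate 5, 166 positions recurred and the mean over 11 libraries was 2.76 (exact permutation test, adjusted p = 0.0781). Without WT replicate 6, 148 positions recurred and the mean was 4.29 (exact permutation test, adjusted p = 0.00391). The cause of the difference was not tested.

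Between mutants, the log2 mean at recurrent positions was 7.31 ± 1.87 (SD, n = 5) in the rnh203-K46W libraries. In the rnh201-G42S libraries it was 3.85 ± 0.72 (SD, n = 3), and for rnh201-null the 3 libraries gave 2.58 ± 2.0 (SD). All 5 rnh203-K46W libraries were above all 3 of each other mutant. The differences were 4.73 from rnh201-null and 3.46 from rnh201-G42S. The two-sided exact permutation test gave p = 0.0357 for both, the smallest possible, and an adjusted p of 0.0536 over 3 tests, so neither passed. rnh201-G42S was 1.27 above rnh201-null (exact permutation p = 0.4, adjusted p = 0.4), with overlapping libraries. Within set A the difference of rnh203-K46W from rnh201-G42S was 4.75 and within set B 1.38. Within library series 300 it was 4.25, with 5 libraries against 1. The differences from rnh201-null were 5.86, 2.96 and 4.42.

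**Figure D4:**
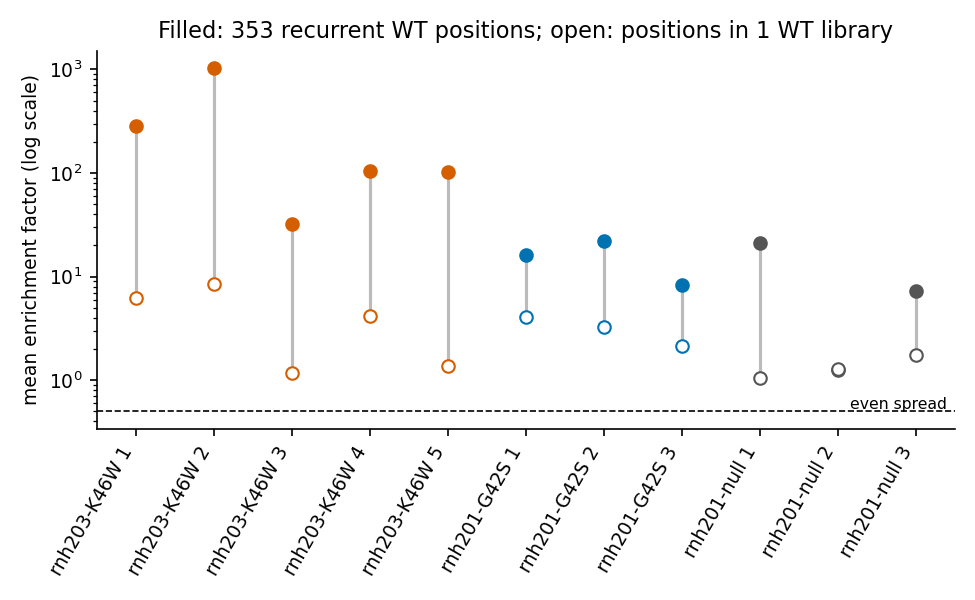
Mean enrichment factor at the 353 recurrent positions and at the 62059 single-library positions in each mutant library, on a log axis; filled points are the recurrent and open points the single-library positions, and the dashed line is an even spread. The rnh203-K46W libraries run from 32.5 to 1033 at recurrent positions, above rnh201-G42S at 8.26 to 22.1, and rnh201-null replicate 2 has both values near 1.3.

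The rnh203-K46W signal lay in few positions. The 10 highest of the 353 gave 93.6% to 100% of the summed signal at recurrent positions in each rnh203-K46W library, and 3 to 6 positions gave 90%. In rnh201-G42S the 10 highest gave 40.7% to 64.9%, and 49 to 72 positions were needed for 90%. In rnh201-null replicates 2 and 3 the 10 highest gave 46.8% and 43.2%, and replicate 1 had 1 position. Such shares depend on the number of positions with a value. This number was 35, 9, 26, 97 and 38 in rnh203-K46W and 95, 129 and 160 in rnh201-G42S. The 100% of rnh203-K46W replicate 2, with 9 positions, was thus fixed. Replicate 4, with 97 positions, had 97.0%. Without the 10 positions highest over all mutant libraries, the mean log2 ratio to single-library positions over 11 libraries was 0.79 (exact permutation test, adjusted p = 0.333). The difference between rnh203-K46W and rnh201-G42S then turned to -0.61. With each position that had a value counted once, whatever its reads, rnh203-K46W was 0.85 above rnh201-null (exact permutation p = 0.571) and 1.06 above rnh201-G42S (exact permutation p = 0.464). The ratio over 11 libraries was then 1.66 (exact permutation test, adjusted p = 0.00391). Counted once, the measure is the share of recurrent positions seen over the share of all strand positions seen. The latter share was 0.0262% in rnh203-K46W replicate 2 and 11.05% in rnh201-G42S replicate 3. The differences between genotypes on this measure therefore depend on depth. The 10 positions left out were picked for their height in these same libraries, while no single-library position was left out.

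The highest of them was on chromosome XIII at 911883, plus strand, 12471 bp from the end. In WT it had enrichment factors of 11833, 1763 and 650.5 in replicates 1, 4 and 6, from 1, 1 and 2 reads. In rnh203-K46W replicates 1 to 5 it had 275, 141, 37, 2456 and 656 reads. The enrichment factors there were 40414, 222760, 1689, 15123 and 13036. It had 14, 8 and 148 reads in the rnh201-G42S libraries, with enrichment factors of 203.9, 77.1 and 505.7, and 7 reads in rnh201-null replicate 2. All 5 rnh203-K46W values were above all rnh201-G42S values, and the one null value was 37.9. This position alone held 61.1% of the signal at recurrent positions in rnh203-K46W replicate 2.

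The position seen in most mutant libraries, 10 of 11, was on chromosome XII at 204007, plus strand. It had 6 reads in WT replicate 3 and 3 in replicate 5. In rnh203-K46W it had 201, 27, 2, 794 and 1 reads, high in the 3 set A libraries and low in replicates 3 and 5 of set B. In rnh201-G42S it had enrichment factors of 78.8, 13.2 and 1006, and in rnh201-null of 24.9 in replicate 2 and 20.13 in replicate 3. Chromosome V position 40771, plus strand, had its highest rnh203-K46W value in a set B library, and the sets overlapped. It had 1 read in WT replicate 5 and 3 in replicate 6, and 1, 5, 162, 205 and 962 in rnh203-K46W. Its enrichment factors were 137.1, 7335, 6886, 1176 and 17800, the highest in replicate 5 of set B and the next in replicate 2 of set A. In rnh201-G42S it had 13 reads in replicate 2 and 3 in replicate 3, and in rnh201-null 3 in replicate 3.

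Positions 1104932 and 111680 of chromosome IV, which lie far apart, were also seen in all 5 rnh203-K46W libraries. Position 1104932, plus strand, was in 3 WT libraries, with 1, 1 and 3 reads in replicates 1, 5 and 6. It had 17, 10, 1, 404 and 4 reads in rnh203-K46W, 1, 1 and 19 in rnh201-G42S and none in rnh201-null. Position 111680, plus strand, had 3 reads in WT replicate 1 and 1 in replicate 6. It had 38, 6, 11, 100 and 14 reads in rnh203-K46W, 6, 18 and 7 in rnh201-G42S and none in rnh201-null. With chromosome II position 28493, minus strand, 6 recurrent positions (1.70%) had a value in all 5 rnh203-K46W libraries, against 7 (0.0113%) of the 62059 single-library positions. The last was chosen after its values were seen.

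The remaining position of the 6 in 3 WT libraries, apart from position 46 at the chromosome I end, was on chromosome XII at 584741, minus strand. It had 1 read in each of WT replicates 2, 4 and 6. In the mutants it had 1 read in rnh203-K46W replicate 1, 3 in each of rnh201-G42S replicates 2 and 3, and 1 in rnh201-null replicate 3. Unlike the chromosome XIII position, it had low read numbers in every library. Position 46 had 26, 1 and 3 reads in WT replicates 2, 4 and 5, 2 in rnh201-G42S replicate 2 and 7 in rnh201-null replicate 3.

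The mitochondrial set of the WT libraries that shared a position went with the set of the mutant libraries that had it. Outside the outermost 100 bp, 96 positions were seen in WT libraries of set A only, 73 in those of set B only and 170 in both. In rnh201-G42S replicate 2, of set B, 22.9% of the A-only and 50.7% of the B-only positions had a value. In rnh201-G42S replicate 1, of set A, the shares were 36.5% and 16.4%. In rnh203-K46W replicate 4, of set A, they were 36.5% and 8.22%, and in replicate 3, of set B, 2.08% and 15.1%. In rnh201-null replicate 3, of set B, they were 24.0% and 39.7%, and in replicate 2, of set A, 12.5% and 5.48%. Of the 11 mutant libraries, rnh201-null replicate 1, with 1 read at 1 recurrent position, went against this order. This is a description, since the sets were drawn from the data.

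**Figure D5:**
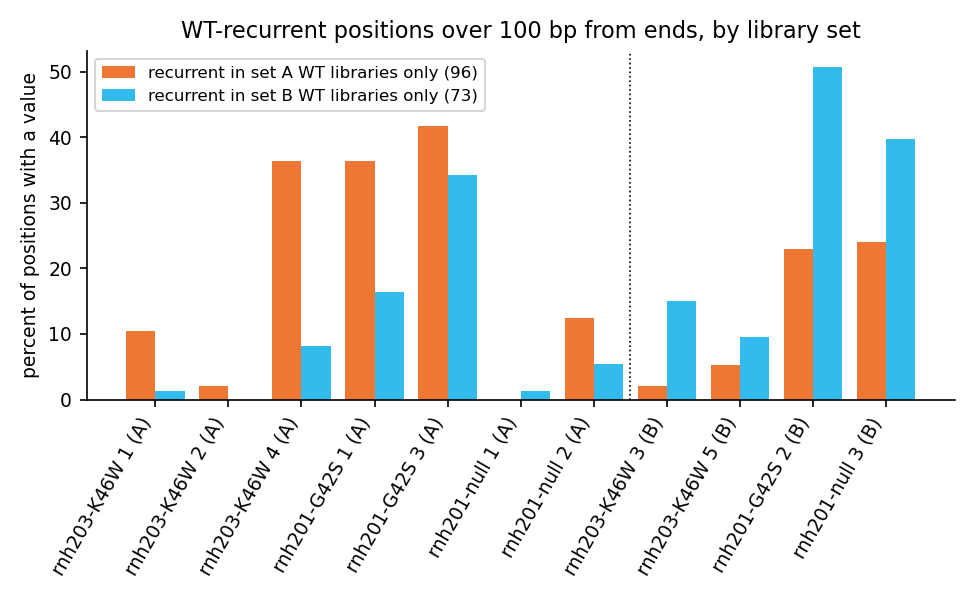
Share of recurrent positions with a value in each mutant library, split by whether the WT libraries that shared the position were all of set A (96 positions) or all of set B (73 positions), outside the outermost 100 bp. The A-only share is the larger in set A libraries other than rnh201-null replicate 1, and the B-only share in set B libraries.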

How the data were processed

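Per the labels' protocols, the authors trimmed reads (cutadapt, per the submitters' processing notes), aligned them to sacCer2 and used Ribose-Map plus custom scripts to remove artifacts and place ribonucleotides. The deposited values are a ratio, an enrichment factor for each stranded coordinate, blank wherever no ribonucleotide was found. Its normalization is not given in the sources used here. Within a row, ratios between libraries of a genotype were constant, so the values behaved as a library constant times reads over a DNA depth shared by the genotype.

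From these, 8216036 rows were merged by position and strand. Reads were recovered from the local median depth (500-bp windows, or 5000-bp where under 8 values), giving a whole-number depth for 98.3% to 100% of nuclear values. The counting was checked on simulated data. The recovered numbers are of reads, and the values do not show whether molecular identifiers were used. The Poisson interval and the floors (3 counts) thus cover counting error only. Chromosome ends were taken as coordinate 1 and the highest coordinate in the table, which can fall short of the true end. Groups followed the titles, and replicates were numbered in accession order, so numbers pair no libraries. Tests were exact permutation tests over libraries with Benjamini-Hochberg adjustment (Python 3.11.15, numpy 2.4.6, pandas 2.3.3, scipy 1.17.1), the pseudocount being 0.1. Named positions were those in 3 or more WT libraries, the 5 in most mutant libraries (4 were tied at 8 libraries, and the tie went to the higher median enrichment factor, leaving 1 out) and the densest group. Other positions and groups described, such as the group on chromosome XVI, were outside this rule and picked from the results. Members, lists and alternatives were chosen with earlier results of these data known. Bases and distances to restriction sites, which were planned, were not analysed here, having no genome of the build. The 4 whole-genome sequencing samples have no column in the table. Alternatives tried were other counting rules, pseudocounts, left-out libraries and positions, and sets.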

Additional observations from a re-analysis of the deposited data

Results flagged for a closer look

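In WT replicate 2 the log2 mean enrichment factor at recurrent positions was 12.78, and 20.63% of its nuclear signal lay there, both far from the other 5 WT libraries. Those held 0.662% to 2.25% of their signal at these positions. In WT replicate 2, 19.7% of the nuclear signal came from recurrent positions within 100 bp of a chromosome end. Among rnh203-K46W libraries, replicate 2 stood apart with 3.02% of its nuclear signal at recurrent positions, against 0.0950% to 0.822% in the others. It was the shallowest rnh203-K46W library, with 7217 nuclear reads. Chance flags about 1 in 20 groups in this way when values are normally spread, and shares of signal need not be. The WT values had also chosen the positions, so that rate does not hold for the WT flags. The causes were not tested.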

How the results depend on the processing

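No paired analysis was possible because replicate numbers follow accession order. Most alternatives left each result's direction and side of the threshold as reported, and those that did not are given here; causes were not tested unless stated. Counting only positions in 3 WT libraries left 6, and allowing 1 nt between libraries gave 1212. Leaving out each WT library in turn gave 148 to 339 positions, and a ratio to the even-spread number of 5.81 to 14.9; with the expectation over positions of any library the ratio was 1.92. With each library's 10 highest recurrent positions left out, which removes high values on one side by construction, the log2 ratio to single-library positions was -0.43 over 11 libraries, -0.92 in rnh203-K46W and -1.03 in rnh201-null, and the rnh203-K46W difference from rnh201-G42S was -1.82. Without the 10 highest over all mutants, an alternative chosen after seeing the data as were the set and series ones, these were 0.79 over 11 libraries, -0.59 in rnh201-null and -0.61 for the difference. With each detected position counted once, rnh201-G42S minus rnh201-null was -0.21, and rnh203-K46W was 0.85 above rnh201-null and 1.06 above rnh201-G42S. Differences on this measure depend on depth. Within sets A and B, with fewer libraries, the ratio over the mutant libraries was 3.57 (adjusted p = 0.125, exact permutation) and 3.87 (adjusted p = 0.25, exact permutation). Leaving out single WT or mutant libraries gave 2.76 to 4.29 over the 11 or 10 mutant libraries left. It gave 5.21 to 6.11 in rnh203-K46W, 1.92 to 2.77 in rnh201-G42S and -0.64 to 3.10 in rnh201-null, where it turned without WT replicate 4 (-0.64) or 5 (-0.64). For the differences it gave 3.66 to 7.91 (rnh203-K46W minus rnh201-null), 0.20 to 3.98 (rnh201-G42S minus rnh201-null) and 2.79 to 4.07 (rnh203-K46W minus rnh201-G42S). WT depth limits the list: most WT values are single reads, and rnh201-null replicate 1 has 1 read at these positions.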
